A study of Homo sapiens with 12 samples.

Results

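Sonic hedgehog (SHH) pathway genes were followed in Daoy cells, a human medulloblastoma (MB) cell line, on 12 single-colour Agilent arrays. The members were the 9 genes SHH, PTCH1, SMO, SUFU, GLI1, GLI2, GLI3, HHIP and BOC, chosen by name and found through the RefSeq accession of each probe. They were measured by 15 of the 34127 probes and made up 9 of the 27708 genes and unnamed transcripts on the array. GLI2 had 4 probes, SUFU 3 and PTCH1 2, and the other 6 genes had 1 each.

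Cells of this 1 line were kept in astrocyte conditioned medium (ACM) or in control DMEM, both with serum, over 1 passage (P1) or over 3 (P3), each passage lasting 48 h, and the groups P1 ACM, P1 DMEM, P3 ACM and P3 DMEM had 3 samples each. ACM was collected from rat hippocampal astrocytes, so that cells and medium came from different species. Cells of the P3 groups were detached with trypsin and reseeded between passages. Per the methods the samples came from independent experiments, and no Hedgehog agonist or inhibitor was given to the cells on these arrays.

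In this pathway a secreted ligand binds PTCH1, a membrane receptor that otherwise holds the transducer SMO silent. Active SMO releases the GLI transcription factors from SUFU, and GLI proteins then switch on target genes that include GLI1, PTCH1 and HHIP. The pathway drives the growth of cerebellar granule neuron precursors, and its mutations define the SHH subgroup of MB.

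Each level below is on the log2 scale and is the intensity of a probe relative to the 75th percentile on its own array, so that 0 is that percentile. Such levels were compared between arrays for the same probe and never between genes. Where a gene had several probes, the brightest on average stood for it. A difference was called when it exceeded 2-fold with an unadjusted p of 0.05 or less, the thresholds of the study, and limma's Benjamini-Hochberg adjusted p over all kept probes is given beside it.

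Several facts about the arrays stood before the results. Sample labels of the scanner files and of the deposited table of normalized values conflicted. None (0) of the 12 table columns ranked as the scanner array of the same sample, with Spearman's rho of 0.953 to 0.992, while each ranked as the array of another sample, with rho of at least 0.999975. Scanner labels were used here, and results under the labels of the table are given beside them. The 12 arrays lay on 3 slides of 4, inferred from shared scan times. Slide 1 held the whole P1 ACM group and replicate 1 of P3 ACM. Slide 2 held the other P3 ACM arrays beside replicates 1 and 2 of P1 DMEM. Slide 3 held replicate 3 of P1 DMEM and the whole P3 DMEM group. Within a passage no slide carried both media, so medium and slide cannot be told apart within a passage. With the slide as a block, the media of a passage are linked only through arrays of the other passage. That link is P3 ACM replicate 1 on slide 1 for P1, and P1 DMEM replicate 3 on slide 3 for P3. Probes well above background made up 91.0% to 94.6% on the arrays of slide 1, 74.3% to 80.3% on slide 2 and 88.1% to 91.0% on slide 3. At P1, called differences lay mostly on dim probes, with 36.4% of the genes in the dimmest of 3 equal classes of signal called against 0.546% in the brightest. Calls at P1 were 3410 higher and 25 lower in ACM, and 905 higher and 230 lower after quantile normalization, which moved the median difference of all genes from 0.15 to 0.000589. Calls at P3 were 230 higher and 207 lower, and 188 higher and 297 lower after quantile normalization. Of 12 genes listed for SHH-type MB and its lineage, 10 were well above background on all 12 arrays, and ATOH1 and ZIC1 were not. The 10 include OTX2, which was listed as low in that type. Of 10 astrocyte markers, 7 were well above background on all 12 arrays, and no group had GFAP well above background on all its arrays. The summed level of the astrocyte list, on the linear scale relative to the 75th percentile, ran at P1 from 5.64 to 7.67 with ACM against 5.86 to 7.43 with DMEM, and at P3 from 5.11 to 7.60 with ACM against 5.41 to 6.63 with DMEM.

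All 9 genes gave signal in Daoy cells. The probes of 8 of them were well above background on every array that measured them, including SMO and GLI3, at levels of 1.59 to 2.57 and 1.76 to 2.30 on the log2 scale, above the 75th percentile of every array. SHH was the exception, well above background on 9 of 12 arrays. None (0) of the 9 genes was called between ACM and DMEM at P1 or at P3. Across the 12 arrays, GLI1 spanned 5.93-fold and BOC 3.88-fold, while GLI3 spanned 1.45-fold. The plot of member levels by array shows these spans on axes of equal length.

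**Figure D1:**
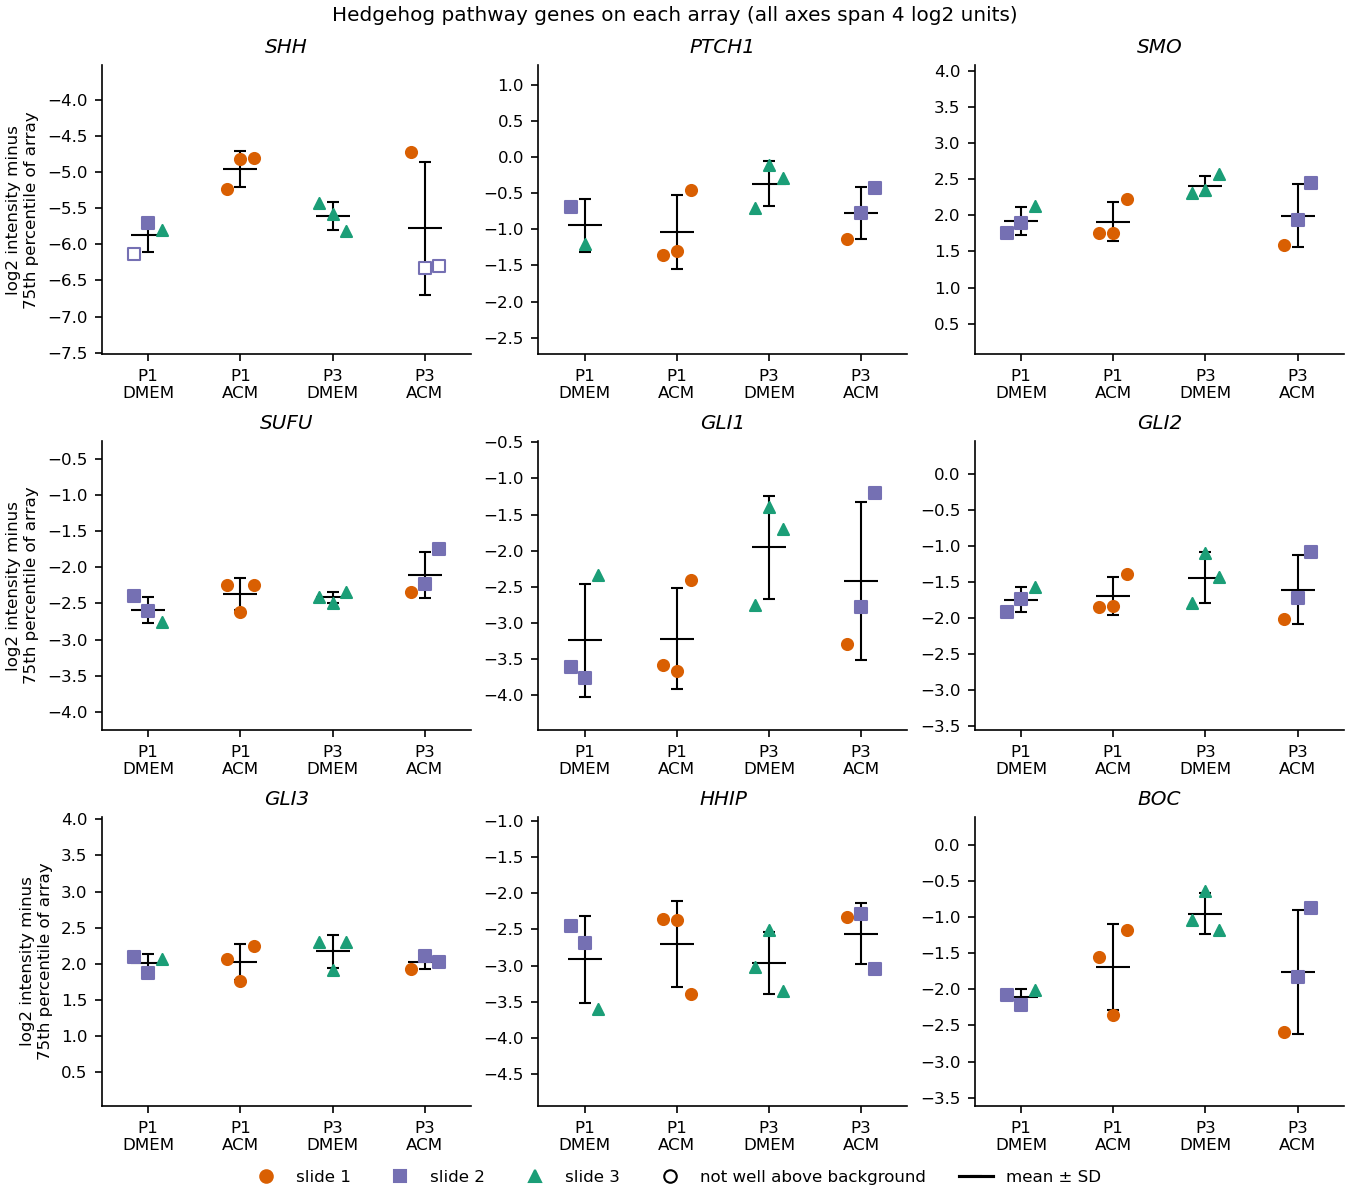
Level of each Hedgehog gene on every array (log2 scale, 75th percentile at 0) by group, with marker shape and colour for the slide, open markers for values not well above background, and black bars for mean ± SD of 3 arrays (2 for PTCH1 in P1 DMEM). SHH is highest on the 4 arrays of slide 1, from -5.24 to -4.72, and GLI1, SMO and BOC are spread widely within groups.

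The ligand came first. SHH is the secreted protein that starts signalling, and its probe was dim, with intensities of 25.3 to 99.4. At P1 it read -5.24, -4.82 and -4.80 on the ACM arrays and -6.13, -5.70 and -5.80 on the DMEM arrays, the first of the latter not well above background. At P3 it read -4.72, -6.32 and -6.30 on the ACM arrays, the last 2 not well above background, and -5.42, -5.58 and -5.81 on the DMEM arrays. Every P1 ACM array was above every P1 DMEM array, and the P3 arrays overlapped. The 4 highest values were the 4 arrays of slide 1, the P3 ACM array on that slide included.

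The P1 difference for SHH was 0.92 ± 0.37 (log2, SE, n = 3 each), or 1.90-fold, with an unadjusted p of 0.030 and an adjusted p of 0.165 in limma. It fell short of 2-fold and was not called. The exact permutation test over the 3 against 3 arrays gave p = 0.1, the smallest this design allows. After quantile normalization the difference was 0.071, with the slide as a block -0.63, and in the deposited table under its own labels -0.15. In a limma fit of the 6 P1 arrays alone the adjusted p was 0.0179, with the same difference. Without P1 ACM replicate 1 the difference was 1.07 and was called, and without P1 DMEM replicate 2 it was called as well, at 1.01. Without P1 ACM replicate 2 or 3, or P1 DMEM replicate 1 or 3, its unadjusted p in limma was above 0.05, with differences of 0.80 to 0.96. Without P3 ACM replicate 1 the adjusted p in limma was 0.00523, with an unchanged difference. At P3 the difference was -0.18, with a 95% interval of -0.99 to 0.64, and without P3 ACM replicate 1 it was -0.71. The order of group means was P1 ACM at -4.95, P3 DMEM at -5.60, P3 ACM at -5.78 and P1 DMEM at -5.88, and the last 3 lay within 1 SD of the P3 ACM group (0.92).

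PTCH1 is the receptor of the ligand and a target of GLI. One of its promoters in RefSeq carries the 9-base GLI consensus GACCACCCA, which is why a stretch of it is printed here, from 60 bases before to 60 bases after the match. It is given 5′ to 3′ on the strand of the gene (minus strand, GRCh38.p14, chr9:95509370-95509498), and the capitals mark the motif, which is read on the opposite strand. The match lies 164 to 172 bases before the start site of that promoter.
PTCH1 promoter: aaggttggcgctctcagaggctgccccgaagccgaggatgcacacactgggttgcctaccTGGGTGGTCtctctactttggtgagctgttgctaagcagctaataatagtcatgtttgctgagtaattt
The motif, searched exactly on both strands, was in 83 of 35116 RefSeq promoter windows of 300 bases (0.236%). It was in 1 of the 13 windows of the 7 members that had any, and in 1 of the 5 windows of PTCH1. A match is a description of these letters only.

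The brighter PTCH1 probe read -1.35, -1.31 and -0.45 on the P1 ACM arrays and -0.69 and -1.20 on the P1 DMEM arrays, where replicate 2 had an outlier spot and gave no value. At P3 it read -1.14, -0.77 and -0.42 with ACM and -0.71, -0.10 and -0.29 with DMEM. The groups overlapped at both passages. The difference was -0.09 at P1 (95% interval -0.85 to 0.66, n = 3 and 2) and -0.41 at P3 (-1.08 to 0.26, n = 3 each). The second, dimmer probe of PTCH1 went the other way, with 0.45 ± 0.29 at P1 and 0.14 ± 0.29 at P3 (SE), and neither was called. In the deposited table under its own labels the brighter probe was 0.72 higher with ACM at P3, with an unadjusted p of 0.0453 and an adjusted p of 0.224 in limma.

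BOC is a co-receptor that binds the ligand together with PTCH1. At P1 it read -1.55, -2.35 and -1.19 with ACM and -2.08, -2.22 and -2.02 with DMEM. At P3 it read -2.59, -1.82 and -0.88 with ACM and -1.04, -0.64 and -1.18 with DMEM. The ACM arrays were more widely spread and overlapped the DMEM arrays at both passages. The P3 difference was -0.81 ± 0.40 (SE, n = 3 each), with an unadjusted p of 0.0669 and an adjusted p of 0.702 in limma. Leaving out P3 ACM replicate 3, the highest of its group, gave -1.26, which was called, and leaving out P3 ACM replicate 1, the lowest, gave -0.40. At P1 the difference was 0.41 ± 0.40. With the slide as a block, linked through P3 ACM replicate 1, it was 1.70 ± 0.62 and was called. Its unadjusted p there was 0.0218 and its adjusted p 0.947 in limma.

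HHIP is a membrane protein that binds and traps the ligand, and a GLI target. It read -2.35, -2.37 and -3.39 in P1 ACM, -2.46, -2.69 and -3.60 in P1 DMEM, -2.33, -2.29 and -3.05 in P3 ACM and -3.02, -2.51 and -3.36 in P3 DMEM. Replicate 3 was the lowest array in all 4 groups. ACM minus DMEM was 0.21 ± 0.38 at P1 and 0.41 ± 0.38 at P3 (SE), neither called. With the slide as a block the differences were -0.47 and -0.73.

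SMO is the transducer that PTCH1 restrains. At P1 it read 1.75, 1.76 and 2.23 with ACM and 1.75, 1.89 and 2.14 with DMEM. At P3 it read 1.59, 1.94 and 2.45 with ACM and 2.31, 2.36 and 2.57 with DMEM. The P1 groups covered almost the same range, while 2 of the 3 P3 ACM arrays lay below every P3 DMEM array. The difference was -0.01 at P1 (95% interval -0.53 to 0.51) and -0.42 at P3 (-0.94 to 0.10), with an adjusted p of 0.708 in limma for the latter. Replicate 3 was the highest array in all 4 groups.

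SUFU holds GLI proteins in the cytoplasm. The brightest probe read -2.24, -2.62 and -2.25 in P1 ACM and -2.40, -2.60 and -2.76 in P1 DMEM. At P3 it read -2.34, -2.23 and -1.74 with ACM and -2.41, -2.50 and -2.34 with DMEM, the lowest ACM array lying above the highest DMEM array by less than the rounding. The P3 difference was 0.31 ± 0.20 (SE, n = 3 each), with an adjusted p of 0.731 in limma and an exact permutation p of 0.1, the smallest possible. A second probe of the same transcript read -3.72, -3.36, -3.17 and -3.07 on the 4 arrays of slide 1 and -4.93 to -4.23 on the other 8. This probe passed both thresholds at P1, 1.01 higher with ACM at an unadjusted p of 0.0305 and an adjusted p of 0.166 in limma. At P1 the brightest probe gave 0.22 and the third probe 0.16 ± 0.16 (SE), and neither was called. The third probe gave 0.04 ± 0.16 at P3. In the deposited table under its own labels the difference of the second probe was -0.84 at P3, with an unadjusted p of 0.00451 and an adjusted p of 0.131 in limma.

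GLI1 is both a transcription factor of the pathway and its classical readout. At P1 it read -3.58, -3.66 and -2.41 with ACM and -3.61, -3.77 and -2.34 with DMEM. At P3 it read -3.29, -2.77 and -1.20 with ACM and -2.75, -1.39 and -1.70 with DMEM. The P1 groups held the same pattern of 2 low arrays and a high replicate 3, and the P3 groups overlapped. ACM minus DMEM was 0.02 at P1 (95% interval -1.30 to 1.34) and -0.47 at P3 (-1.79 to 0.85). The P1 interval includes changes of more than 2-fold in either direction, and the P3 interval a fall of more than 2-fold. With the replicate number as a block the P1 interval was -0.76 to 0.81, inside 2-fold. The labels number the replicates but state no pairing, which was inferred from these same data. Medium and slide also cannot be told apart at P1. A 2-fold effect of ACM is therefore not excluded, even if that pairing holds. With the slide as a block the differences were 1.78 ± 0.93 and 1.31 ± 0.93 (SE), neither called. In the deposited table under its own labels GLI1 was 1.64 ± 0.66 higher with ACM at P3 and was called, with an unadjusted p of 0.0294 and an adjusted p of 0.193 in limma. There its log2 values were 8.38, 9.35 and 9.72 with ACM and 8.39, 6.97 and 7.17 with DMEM.

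GLI2 is the main activator and GLI3 mostly a repressor among the GLI factors. The brightest GLI2 probe read -1.85, -1.83 and -1.39 in P1 ACM, -1.92, -1.73 and -1.57 in P1 DMEM, -2.02, -1.73 and -1.08 in P3 ACM and -1.80, -1.10 and -1.43 in P3 DMEM. Its differences were 0.05 at P1 and -0.17 at P3. The 3 other GLI2 probes gave 0.49, -0.04 and 0.17 at P1 and -0.31, -0.04 and 0.17 at P3, and none (0) was called. GLI3 was the steadiest member, with group means of 2.02 ± 0.24 in P1 ACM, 2.01 ± 0.13 in P1 DMEM, 2.02 ± 0.09 in P3 ACM and 2.17 ± 0.22 in P3 DMEM (SD, n = 3). Its 95% intervals, -0.38 to 0.41 at P1 and -0.54 to 0.24 at P3, excluded a 2-fold change between media.

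Counted together, 0 of the 9 genes were called at P1 against 13.6% of the 25270 genes tested, and 0 at P3 against 1.73%. The P1 share depended on signal. Only SHH lay in the dimmest of the 3 classes of signal, where 36.4% of genes were called at P1. GLI3 and SMO lay in the brightest, with 0.546% called, and the other members in the middle class, with 3.85% called. In limma 1 of the 9, SHH, had an unadjusted p of 0.05 or less at P1, against 23.997% of all genes. At P3 0 had, against 7.27%. The methods' t-test gave the same counts of members. No gene of the 25270 had an adjusted p of 0.05 or less in either comparison. The arrays of the media did not overlap for 1 of the 9 members at P1, SHH, against 36.1% of all genes, and for 1 at P3, SUFU, against 9.78%. At P1, 7 members were higher and 2 lower with ACM, with a median difference of 0.05 against 0.15 for all genes. At P3, 2 were higher and 7 lower, with a median of -0.18 against 0.0029. Of the 9 genes, 0 had an effect of ACM that differed between passages at an unadjusted p of 0.05 or less in limma, against 8.24% of all genes. The smallest p there was 0.0534 for BOC, with a difference of -1.23 ± 0.57 and an adjusted p of 0.634, and SHH followed at 0.0599. BOC passed an unadjusted p of 0.05 there without P1 ACM replicate 2 or P3 ACM replicate 3, and SHH without P3 ACM replicate 1, where its difference was -1.63 with an adjusted p of 0.00302 in limma. With the replicate number as a block, SHH reached an unadjusted p of 0.0292 and an adjusted p of 0.617 in limma.

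**Figure D2:**
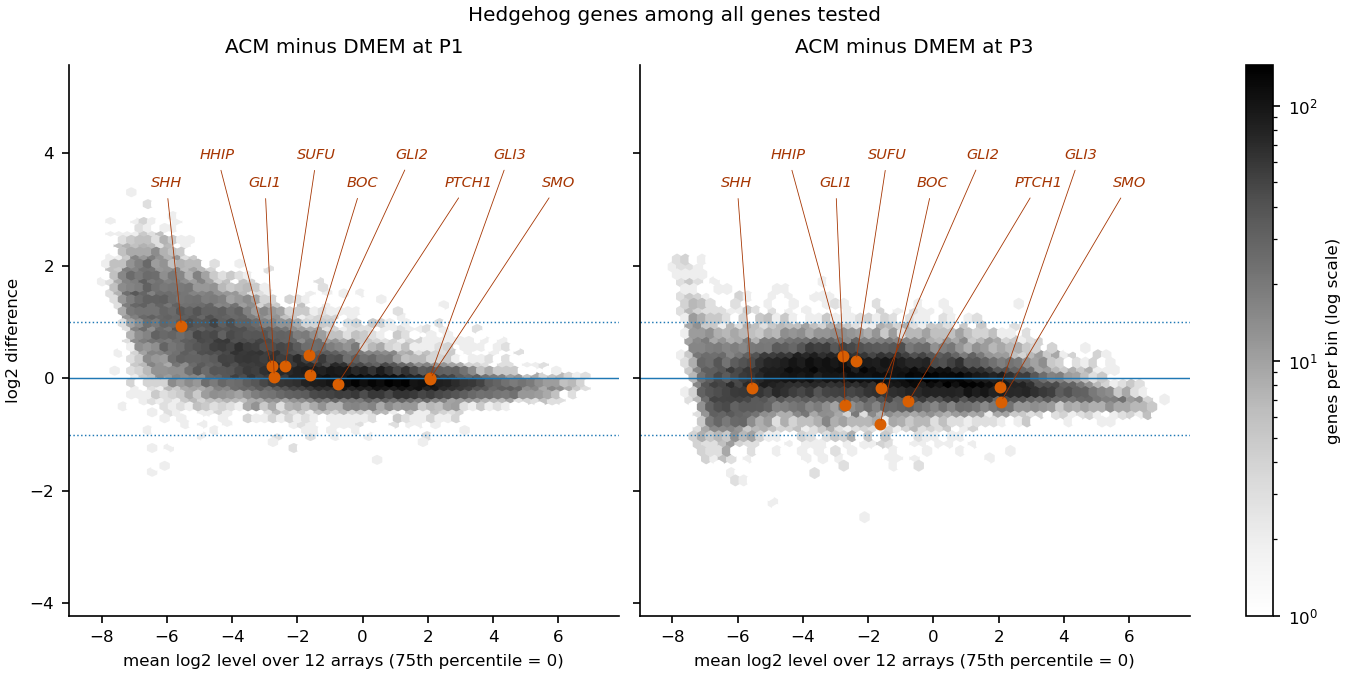
Log2 difference between ACM and DMEM (vertical) against the mean log2 level over 12 arrays (horizontal) for 25270 genes at P1 and P3, with grey bins for all genes, orange points for the 9 Hedgehog genes and dotted lines at 2-fold. At P1 dim genes as a whole lie above 0, where SHH at 0.92 lies too, and the members with higher signal lie between -0.09 and 0.41.

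Settings changed these values, as the plot of differences shows. With the slide as a block, the P1 differences of 5 members lay outside their 95% interval from the scanner values. GLI1 was at 1.78, BOC at 1.70, GLI2 at 0.75, SMO at 0.70 and SHH at -0.63. These values depend on P3 ACM replicate 1 as the link to slide 1 and compare no media on the same slide and passage. Under the labels of the deposited table, 5 members that were lower with ACM at P3 were higher, namely GLI1, PTCH1, BOC, GLI2 and SMO. GLI3 stayed between -0.15 and 0.18 under all 4 settings of the plot at both passages.

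**Figure D3:**
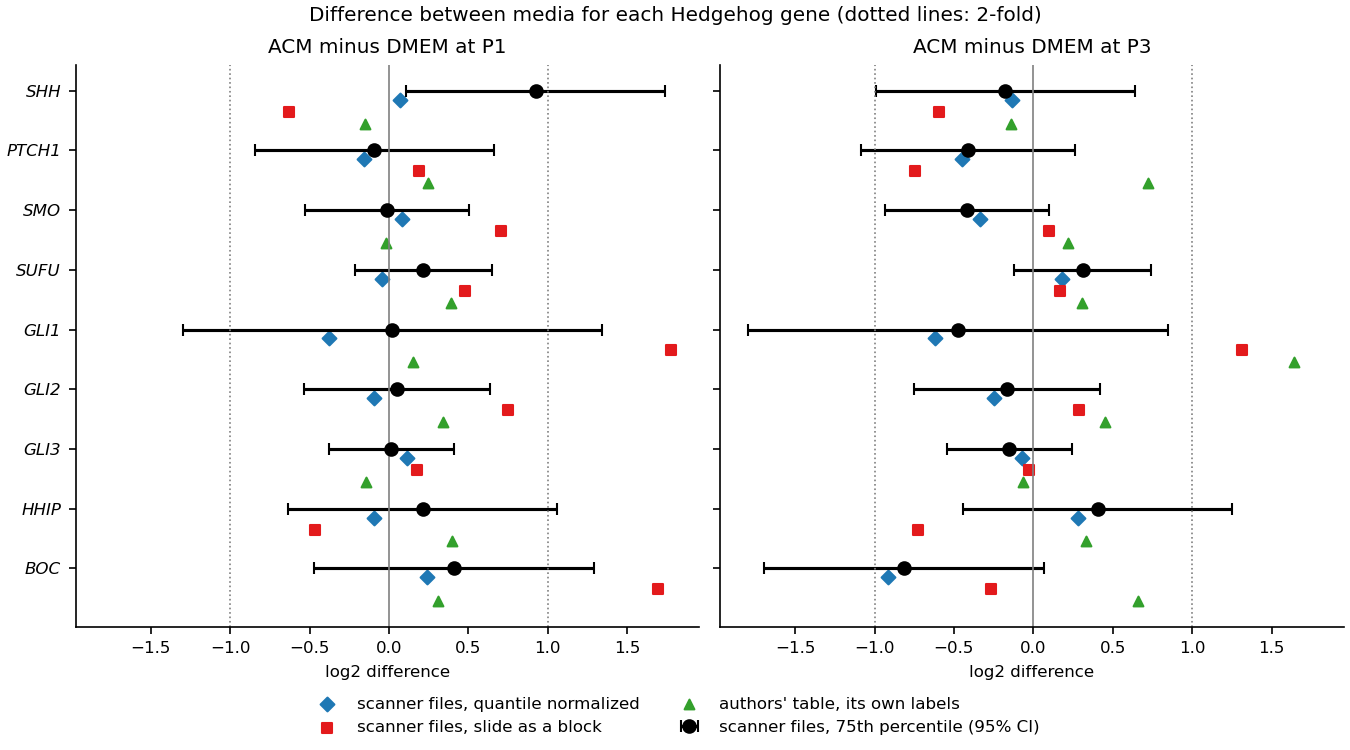
Log2 difference, ACM minus DMEM, for each Hedgehog gene at P1 (left) and P3 (right), with black points and bars for the scanner values and their 95% interval, diamonds after quantile normalization, squares with the slide as a block and triangles for the deposited table under its own labels. GLI1 at P3 runs from -0.62 to 1.64 over these settings, and GLI3 stays near 0.

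The passages were also compared in control medium, without ACM. BOC was the only member called, with -2.11 ± 0.11 in P1 DMEM and -0.95 ± 0.28 in P3 DMEM (SD, n = 3), a 2.23-fold rise. Its unadjusted p was 0.0149 and its adjusted p 0.571 in limma, and all 3 P3 arrays were above all 3 P1 arrays. That is 1 of 9 members, against 1.72% of all genes. On slide 3, which held arrays of both passages, the 3 P3 DMEM arrays were on average 1.07 above P1 DMEM replicate 3. The fit with the slide as a block rests on that same comparison and only repeats its 1.07. The difference was 1.15 after quantile normalization and 0.9992 without P3 DMEM replicate 2, just short of 2-fold. In the deposited table under its own labels it was 0.15. GLI1 was 1.29 ± 0.60 higher at P3 (unadjusted p of 0.0546 and adjusted p of 0.571 in limma), and without P1 DMEM replicate 3 it was 1.74 higher and called. It was also called without P1 ACM replicate 3, P3 ACM replicate 1 or 3, or P3 DMEM replicate 1. On slide 3 alone the GLI1 difference was 0.39, and P1 DMEM replicate 3, its array on that slide, had the highest GLI1 level of its group. SMO was 0.48 ± 0.23 higher without overlap, PTCH1 0.58 ± 0.34 and GLI2 0.30 ± 0.27. The share of all genes without overlap was not counted between passages, so that of SMO and BOC has no background here. In all, 8 of the 9 members were higher, with a median of 0.30 against 0.08 for all genes.

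GLI1, GLI2, SMO, BOC and PTCH1 went up and down together from array to array, on arrays of both media. Over 12 arrays GLI1 correlated with GLI2 (r = 0.90, permutation p = 0.00011, adjusted 0.00396; rho = 0.80, permutation p = 0.00322, adjusted 0.0232). It also correlated with SMO (r = 0.88, permutation p = 0.00025, adjusted 0.0045; rho = 0.82, permutation p = 0.00182, adjusted 0.0218). With BOC r was 0.79 (permutation p = 0.00333, adjusted 0.02) and rho 0.80 (permutation p = 0.00313, adjusted 0.0232). With PTCH1, on 11 arrays, r was 0.77 (permutation p = 0.00716, adjusted 0.0335) and rho 0.72 (permutation p = 0.0159, adjusted 0.0715). The adjustment was over the 36 pairs of members, and each p came from 100000 permutations. The permutations treat all arrays as interchangeable, although they are of 4 groups and 3 slides and share a pattern by replicate number. Replicate 3 was highest in 4 of 4 groups for SMO and in 3 of 4 for GLI1, GLI2 and BOC. Deviations from slide or group means, given below, do not remove that pattern, so these p values may be too small.

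Leaving out the 2 arrays farthest from the median of GLI1 gave r of 0.79 for GLI2, 0.87 for SMO, 0.63 for BOC and 0.66 for PTCH1. No slide holds the 6 arrays a correlation within it would need. Over deviations from slide means r was 0.90, 0.82, 0.72 and 0.67 in that order, over deviations from group means 0.93, 0.89, 0.77 and 0.65, and after quantile normalization 0.91, 0.81, 0.81 and 0.81. HHIP tended the other way, with r of -0.53 against GLI1 (permutation p = 0.0763, adjusted 0.208) and rho of -0.54, and r of -0.70 against SMO (permutation p = 0.0131, adjusted 0.0428) with rho of -0.66 (permutation p = 0.0234, adjusted 0.0828). SHH (r = -0.35), SUFU (0.41) and GLI3 (0.33) had no correlation with GLI1 past an adjusted permutation p of 0.05. Such correlations were common among genes on these arrays. Of 18380 named genes with values on all arrays, 1.27% correlated with GLI1 as strongly as GLI2 did, 2.31% as strongly as SMO and 7.60% as strongly as BOC.

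**Figure D4:**
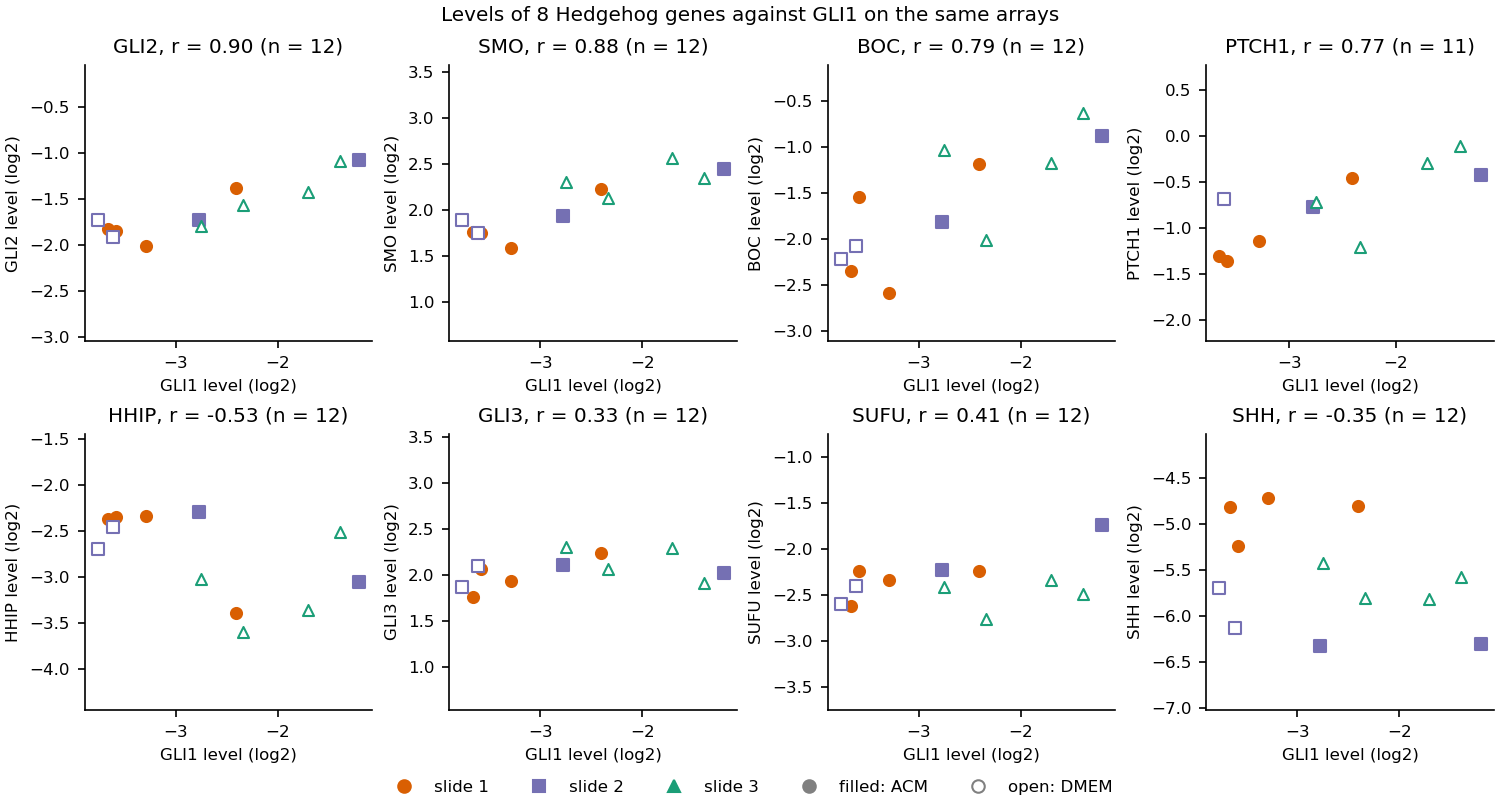
Level of 8 Hedgehog genes (vertical, log2) against the level of GLI1 (horizontal, log2) on the same arrays, with shape and colour for the slide, filled markers for ACM and open markers for DMEM. GLI2, SMO, BOC and PTCH1 rise with GLI1 when the slides are pooled (r from 0.77 to 0.90), which does not hold for every array within a slide. On slide 1, P3 ACM replicate 1 is lowest for GLI2, SMO and BOC but not for GLI1. SHH separates slide 1 from the other slides.

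As a description over the 12 arrays, the 3 named genes closest to GLI1 were CATSPER2, ZNF251 and UNK (r of 0.98 each), and those closest to SMO were JAKMIP3, PCSK1 and IRX1 (r from 0.96 to 0.99). BOC was closest to ID1, EMX2OS and NKX2-1 (0.94 to 0.97), and GLI2 to IFITM4P, LINC00937 and MAGED4B (0.97 to 0.98). GLI3 was closest to NSUN6, APP and SSH2 (0.85 to 0.90), HHIP to UBE2V2, GPN3 and SELENOI (0.93), and SUFU to ISCA2, TEX2 and SLITRK5 (0.87 to 0.90). No member was among the 3 closest genes of another.

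The rest of the pathway was read from a list of 56 further genes, of which 55 were tested. At P1, 3 (5.45%) were called, all higher with ACM, against 13.6% of all genes, and at P3 0 were, against 1.73%. Their median difference was 0.02 at P1 and 0.07 at P3, against 0.15 and 0.0029 for all genes. In limma 8 of the 55 had an unadjusted p of 0.05 or less at P1, against 23.997% of all genes. At P3 1 had, against 7.27%. Both other ligands were among the 3 called.

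IHH, the ligand of cartilage and bone, read -2.60, -2.56 and -2.57 in P1 ACM and -4.44, -3.98 and -4.66 in P1 DMEM, a difference of 1.78 ± 0.48 (SE, adjusted p of 0.103 in limma). In P3 ACM it read -2.42 on slide 1 and -4.57 and -4.73 on slide 2, next to -4.36 to -4.17 in P3 DMEM, so that its high values were the 4 arrays of slide 1, as for SHH. The IHH difference was 1.41 after quantile normalization and 1.06 with normexp, called in both, -0.60 with the slide as a block and -0.32 in the deposited table under its own labels. DHH, the ligand of testis and nerve sheath, differed by 2.04 ± 0.46 (adjusted p of 0.103 in limma) and was well above background on 3 P1 ACM arrays and 1 P1 DMEM array. ADCY5, an adenylyl cyclase that makes the cAMP opposing SMO, differed by 1.39 ± 0.43 (adjusted p of 0.104 in limma), with 3 and 1 arrays well above background, and at 0.97 it was not called without P1 DMEM replicate 1. After quantile normalization DHH was at 0.92 and ADCY5 at 0.93, and neither was called.

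By role, all 8 transducers near SMO were higher at P1, with a median of 0.18, and 7 of 8 at P3, with a median of 0.31. Of 15 target genes measured, 8 were higher and 7 lower at P1, with a median of 0.0067, and 11 higher and 4 lower at P3, with a median of 0.17. Of 16 genes listed for the control of GLI proteins, 6 were higher at P1 and 8 at P3, with medians of -0.09 and -0.0029. The 7 genes of the primary cilium, the organelle in which SMO acts, had medians of -0.02 and -0.09. Of the 4 genes for processing and release of the ligand, 4 were lower at P3, with a median of -0.30. The lowest value at P3 was that of GAS1, a co-receptor named here after its value was seen, at -1.49 ± 0.79 with an unadjusted p of 0.0879 and an adjusted p of 0.704 in limma.

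**Figure D5:**
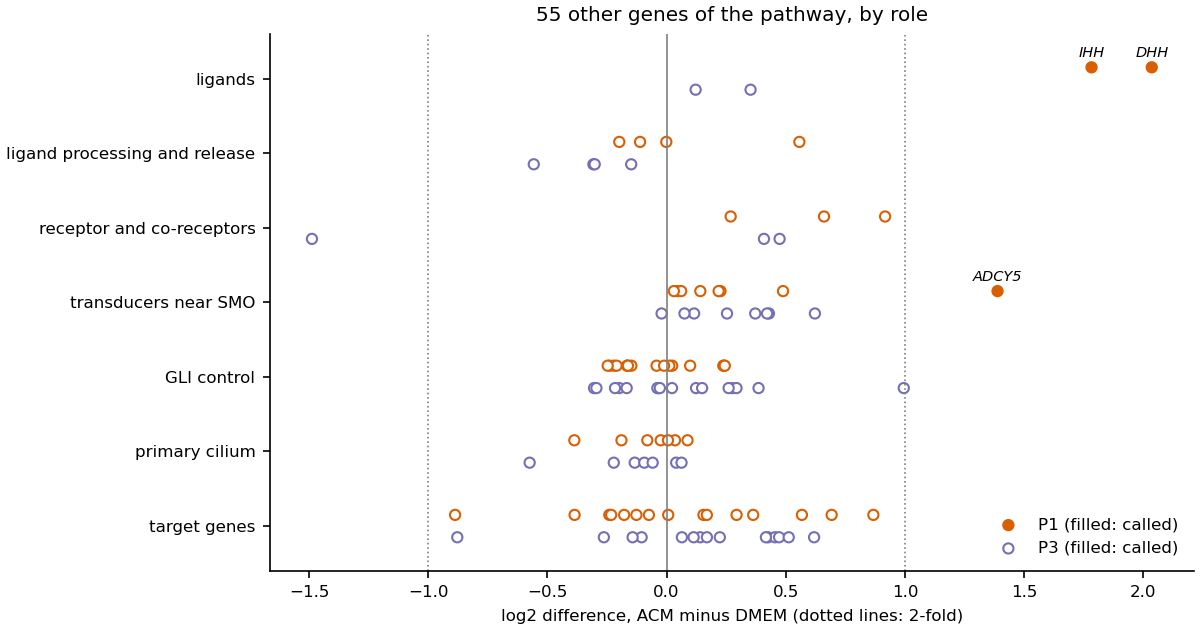
Log2 difference, ACM minus DMEM, of 55 other genes of the pathway by role, in orange at P1 and violet at P3, with filled circles for genes called and dotted lines at 2-fold. DHH, IHH and ADCY5 are called at P1, and most other genes lie within 1 log2 unit of 0.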

How the data were processed

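The authors extracted total RNA from Daoy cells with TRIzol, labelled it with Cy3, and scanned 12 Agilent arrays. Per the labels, Agilent Feature Extraction 11.0.1.1 gave the deposited intensity of each spot, background corrected and not normalized between arrays. A deposited table of normalized log2 values (30569 probes) served only as an alternative, under its own labels. Here control and outlier spots were left out, spots of a probe averaged, and log2 levels relative to the 75th percentile on each array were tested. A probe was kept if, in at least 1 group, all arrays showed it well above background. Symbols came from RefSeq (GRCh38.p14), matched by accession for 75.5% of probes. All 12 arrays entered a single limma 3.58.1 fit (R 4.3.3, two-sided) of 4 group means with 8 residual degrees of freedom. The number of arrays limits the precision. Permutations used scipy in Python. The fit was tested on simulated data. Deviations of same-numbered samples from their group means correlated at 0.43, 0.19 and 0.27 at P1, which was taken as pairing there, and at 0.23, -0.19 and 0.06 at P3, which was not. Members and lists were chosen with earlier results of these data known. Genes named beside the members were at most 4 of the wider list per passage, called without overlap of the arrays, and the 3 genes closest to each member by r, unless stated.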

Additional observations from a re-analysis of the deposited data

How the results depend on the processing

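In limma SHH alone among the members passed an adjusted p of 0.05, at P1 when the 6 P1 arrays were fitted alone, and at P1 and for the difference between passages without P3 ACM replicate 1. Many genes moved in these fits. At the study's thresholds 14.7% of all genes were called at P1 in each, 99.4% of them higher with ACM in the fit of P1 alone. Without P3 ACM replicate 1, 24.3% of all genes passed an unadjusted p of 0.05 in limma for the difference between passages. Slide and medium were confounded within each passage, and without the replicate block the P1 interval of GLI1 passed 2-fold in both directions. Dim probes, SHH among them, carried most P1 calls, and SHH drops out where only probes well above background on all 12 arrays are kept.

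Members called at P1 numbered 1 with the slide as a block, in place of 0 (0 to 1 leaving out single arrays). The slide as a block after quantile normalization, an alternative chosen after seeing the data, also gave 1. Of all genes, 2.10% and 1.97% were called in these 2 settings. At P3 the deposited table gave 1 in place of 0 (0 to 1 leaving out single arrays), against 6.11% of all genes. Between P3 and P1 in DMEM the main count was 1 (0 to 2 leaving out single arrays). Trended and robust eBayes and the filter to probes well above background on all 12 arrays gave 2. The values under the table's labels gave 0. Of all genes, 1.78%, 1.33% and 0.567% were called in that order. For the difference between passages, 1 member, BOC, in place of 0, passed an unadjusted p of 0.05 in limma under several settings. These were trended eBayes, that filter, the slide as a fixed block, as a random block, and the fixed block after quantile normalization. Of all genes, 7.02%, 3.82%, 3.87%, 1.27% and 3.89% passed there in that order. Leaving out single arrays gave 0 to 1 member. The wider list gave 3 calls at P1 (3 to 4 leaving out single arrays). It gave 4 without a filter and 1 with normexp or the strict filter. After quantile normalization, with the slide as a random block or in the methods' t-test it gave 2. With the slide as a block or in the table it gave 0, and with the slide block after quantile normalization 1. Of all genes, 13.8%, 0.882%, 4.51%, 4.49%, 1.65%, 12.9%, 2.10%, 1.57% and 1.97% were called in that order. At P3 the wider list gave 0 calls (0 to 1 leaving out single arrays). It gave 3 in the table and 1 with the replicate block, against 6.11% and 2.01% of all genes.

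With the replicate block, paired within passage, members called stayed at 0 at P1 and P3, 1 differed between passages, and PTCH1 at P1 turned to 0.0404. When probes were averaged per gene, SUFU turned to -0.0593 in DMEM, and PTCH1 to 0.45 at P1 and 0.14 at P3. These PTCH1 values equal those of its dimmer probe alone. Its brighter probe, without a value on P1 DMEM replicate 2, did not enter them, so they are no average of both probes. After quantile normalization GLI1 turned to -0.38, GLI2 to -0.10, SUFU to -0.0407, HHIP to -0.0919 and SMO to 0.08 at P1, and HHIP to 0.0076 in DMEM, and with normexp GLI1 to -0.30 and SMO to 0.0315 at P1. With the slide as a block, P1 values turned to -0.63 for SHH, -0.47 for HHIP, 0.19 for PTCH1, 0.70 for SMO and -0.60 for IHH, P3 values to -0.73 for HHIP, 0.29 for GLI2, 1.31 for GLI1 and 0.10 for SMO, and HHIP in DMEM to 0.63. The same block after quantile normalization turned P1 values to -0.45 for SHH, -0.44 for HHIP, 0.19 for PTCH1, 0.72 for SMO and -0.47 for IHH, P3 values to 0.16 for GLI2, 0.21 for SMO, 0.0795 for GLI3, 1.13 for GLI1 and -0.83 for HHIP, and HHIP in DMEM to 0.76. As a random block it turned PTCH1 to 0.0569 and SMO to 0.21 at P1, GLI1 to 0.0224 at P3 and HHIP to 0.20 in DMEM. The deposited table turned P1 values to -0.15 for SHH, 0.24 for PTCH1, -0.14 for GLI3, -0.24 for DHH and -0.32 for IHH. It turned P3 values to 1.64 for GLI1, 0.66 for BOC, 0.72 for PTCH1, 0.22 for SMO and 0.45 for GLI2, and DMEM values to -0.0633 for SHH, 0.0767 for HHIP, -0.0104 for SUFU, -0.0423 for PTCH1, -0.0028 for GLI3, -0.63 for GLI1 and -0.0247 for SMO. Leaving out single arrays, the values that turned ranged at P1 from -0.38 to 0.47 for GLI1, -0.10 to 0.14 for GLI2, -0.0934 to 0.15 for GLI3, -0.13 to 0.56 for HHIP, -0.39 to 0.16 for PTCH1 and -0.17 to 0.0925 for SMO. They ranged at P3 from -0.43 to 0.0362 for GLI2 and -0.71 to 0.0934 for SHH, and in DMEM from -0.39 to 0.18 for HHIP. The cause was not tested.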
